A study of Mus musculus with 26 samples.

Results

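Of the 31469 transcript clusters in RNA from mouse liver, 5 were listed as lowered in leptin-deficient ob/ob livers and little changed by a high-fat diet. The members are the clusters uc008glt.1, uc008hhr.1, uc008hpc.2, uc007hkx.1 and uc007hbd.1, each named by its most counted transcript. They hold 11 transcripts. The list fixes them by cluster number and states no threshold. It was drawn up from mouse-group differences already measured in these libraries and was taken to rest on total RNA. The members' total RNA differences are therefore a description and carry no test. If the choice also used the IP libraries, the IP tests are not independent of it.

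The ob/ob mice were B6.V-Lepob/J on normal diet, the high-fat diet mice were C57BL/6J, and the wild-type mice were C57BL/6J on normal diet. From each mouse group there were 2 cytoplasmic and 2 nuclear libraries of RNA precipitated with an antibody against hnRNPK, and 4 libraries of total liver RNA. The total RNA libraries came in pairs under one replicate number, and each pair was summed, so every mouse group had 2 units of each RNA kind and there were 18 units in all. One control precipitation with IgG was made per compartment, from mice labelled as mixed in strain and diet. The labels used here give no age and tie no replicate to an animal of its own. A p-value here thus speaks of the spread among these libraries alone, part or all of which may be technical.

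Leptin is a hormone of fat cells that limits food intake, and the Lep ob mutation abolishes it in every tissue, so ob/ob mice overeat and become obese with fatty livers. A high-fat diet makes mice of the wild-type strain obese while their leptin gene is intact. hnRNPK is an RNA-binding protein of the heterogeneous nuclear ribonucleoprotein family that moves between nucleus and cytoplasm and is known for roles in transcription, RNA processing and translation. Immunoprecipitation (IP) with its antibody enriches RNA that the protein holds, together with RNA that sticks to beads. The extracts were made from homogenised liver, so the IP libraries have no matching input, and IP against total RNA compares fractionation and precipitation at once.

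The members go by identifier only, because the files pair no transcript with a gene symbol and the tables at hand link none of these identifiers to one. No role, pathway or sequence is therefore given for any of them. Cluster uc008glt.1 has 1 transcript, of 2004 nt. Cluster uc008hhr.1 has one of 2662 nt and the shorter uc008hhq.1 of 973 nt. Cluster uc008hpc.2 has one of 1964 nt and uc012bmd.1 of 1596 nt, and uc007hkx.1 has one of 2519 nt and uc007hkw.1 of 2849 nt. The largest cluster by transcript number, uc007hbd.1, has 4, of 1346, 2965, 3009 and 3086 nt. Liver cell types could not be checked by markers for the same lack of symbols, so in these bulk samples fewer cells of a type and less RNA per cell cannot be told apart.

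Library totals were 25597307 to 41731910 estimated counts for total RNA, 8834063 to 12068891 for cytoplasmic IP and 5336060 to 10581089 for nuclear IP. The IgG libraries were smaller, with 338469 counts in the cytoplasm and 3116786 in the nucleus. In nuclear IP the most counted cluster took 18.6% to 41.2% of a unit's counts, against 12.2% to 28.8% in cytoplasmic IP and 0.927% to 2.78% in total RNA. Levels are CPM, counts scaled to a common library total, further scaled by TMM, a method that keeps such a dominant cluster from lowering all the others.

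In total RNA, each of the 5 clusters was lower in both ob/ob units than in all 4 units of the other groups, an order that 28% of 13516 clusters shared. The widest gap was in uc008glt.1, which had 0.224 and 0.180 CPM in ob/ob livers, 3.68 and 4.69 CPM in high-fat diet livers and 5.43 and 4.89 CPM in wild-type livers. In ob/ob livers it rested on a few counts per library. Cluster uc008hhr.1 had 8.30 and 7.88 CPM in ob/ob livers, 58.2 and 43.3 CPM in high-fat diet livers and 39.6 and 44.8 CPM in wild-type livers. Its high-fat diet and wild-type units overlapped. Cluster uc008hpc.2 had 28.8 and 25.9 CPM in ob/ob livers, 78.3 and 85.4 CPM in high-fat diet livers and 111 and 100.4 CPM in wild-type livers, so here the high-fat diet units lay between the other groups. Cluster uc007hkx.1 had 12.5 and 14.9 CPM in ob/ob livers, 64.5 and 52.0 CPM in high-fat diet livers and 42.1 and 47.8 CPM in wild-type livers. Both of its high-fat diet units were above both wild-type units, as were those of uc007hbd.1, while those of uc008glt.1 were below. The share of all clusters whose high-fat diet and wild-type units lay apart was not taken, so these orders only describe the members. Cluster uc007hbd.1, the most counted of the 5 in total RNA, had 49.3 and 46.1 CPM in ob/ob livers, 117 and 124 CPM in high-fat diet livers and 115 and 109 CPM in wild-type livers. Its ob/ob level was the closest of the 5 to the other groups.

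On the log2 scale, total RNA of ob/ob against wild type differed by -4.60 ± 0.25 (SE, edgeR) for uc008glt.1, -2.31 ± 0.16 for uc008hhr.1, -1.88 ± 0.11 for uc008hpc.2, -1.63 ± 0.15 for uc007hkx.1 and -1.16 ± 0.10 for uc007hbd.1. The members' median was -1.88, against 0.004 over the 15487 clusters in that fit. For high-fat diet against wild type the members ranged from -0.34 ± 0.11 for uc008hpc.2 to 0.41 ± 0.14 for uc007hkx.1, with a median of 0.14. The list was taken to rest on these differences. The libraries of a pair agreed for 4 of the members, with a second library at 0.887 to 1.18 times the first. For uc008glt.1 in ob/ob livers the ratio was 0.677 and 2.80, on a few counts each.

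**Figure D1:**
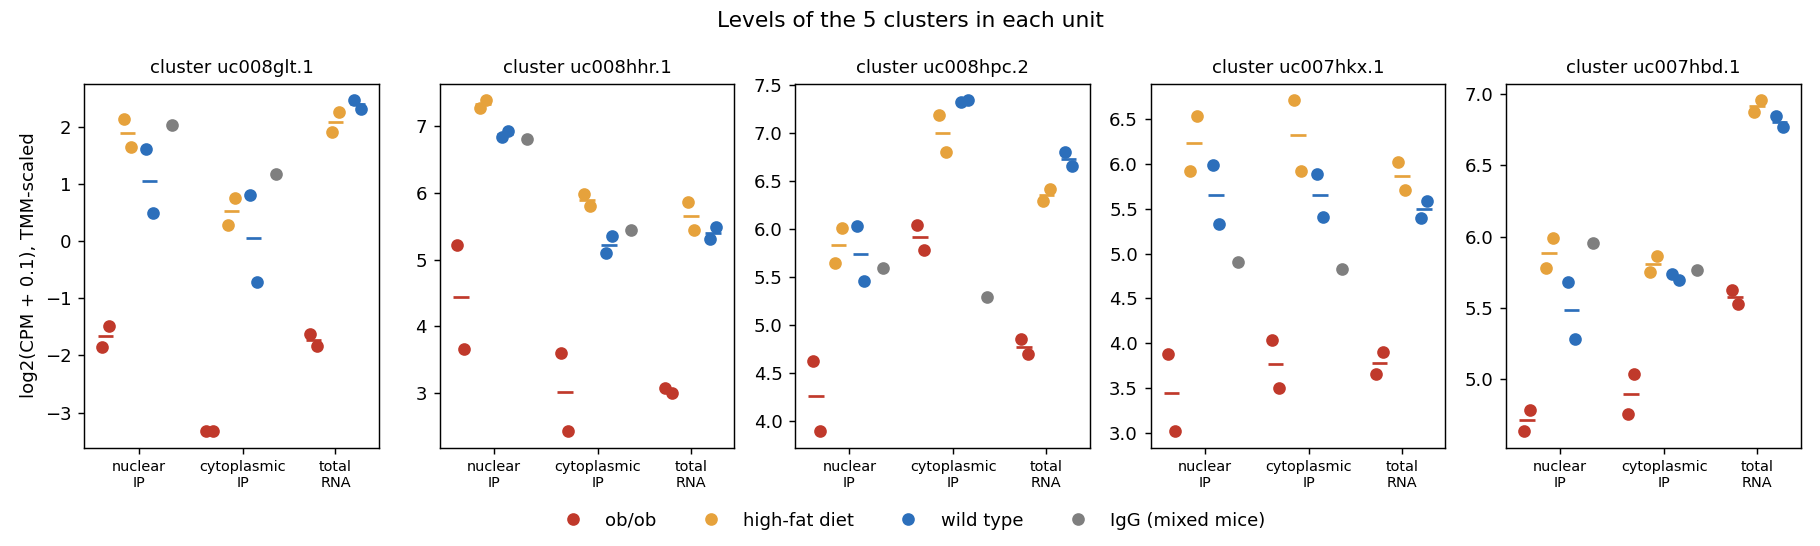
Level of each cluster in every unit, as log2 of TMM-scaled CPM plus 0.1, in nuclear IP, cytoplasmic IP and total RNA of ob/ob, high-fat diet and wild-type livers and in IgG. Points are units and bars are the means of 2 units; in each panel both ob/ob points lie below the 4 high-fat diet and wild-type points of the same RNA kind, and the lowest points are the 0 counts of uc008glt.1 in ob/ob cytoplasmic IP.

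Cytoplasmic IP libraries were made apart from total RNA, although they carry the same replicate numbers and may come from the same livers. In RNA precipitated from the cytoplasm, the 4 clusters other than uc008glt.1 were called lower in ob/ob than in wild-type livers, where the edgeR test called 12.8% of 13516 clusters, 6.83% being lower. Cluster uc008hhr.1 had 11.9 and 5.27 CPM in ob/ob livers, against 34.1 and 40.7 CPM in wild-type livers, which is -2.17 ± 0.40 (SE) as a log2 fold change, with an edgeR adjusted p of 0.0041. Cluster uc007hkx.1 had 16.4 and 11.3 CPM in ob/ob livers, against 59.1 and 42.5 CPM in wild-type livers, a change of -1.94 ± 0.34 (edgeR adjusted p = 0.0032). For uc008hpc.2 the levels were 65.8 and 55.03 CPM in ob/ob livers, against 160.4 and 162 CPM in wild-type livers, a change of -1.48 ± 0.23 (edgeR adjusted p = 0.0017). Per length, as TPM, this was the highest of the 5 in cytoplasmic IP of every mouse group. The smallest change was that of uc007hbd.1, at 27.0 and 32.8 CPM in ob/ob livers and 53.2 and 51.8 CPM in wild-type livers (-0.87 ± 0.16, edgeR adjusted p = 0.0037). Between none of these pairs of groups did the units overlap, and the share of all clusters without overlap between these groups was not taken.

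For uc008glt.1, ob/ob cytoplasmic IP held 0 counts of 23177101, against 18 counts of 19463965 in wild type. With a floor of 3 counts over both ob/ob libraries it was at least 7.14-fold lower. It entered the tests through its units outside ob/ob, since it was too scarce there to pass the filter on low counts. Its ob/ob differences in IP are therefore given as counts with no p and are left out of the members counted as called. Over all 5 members, as a description, the median log2 fold change was -1.94, that of uc007hkx.1, and stands with uc008glt.1 at its bound. Over all clusters tested the median was -0.03. In cytoplasmic IP, 11.6% of clusters had both ob/ob units below the other 4. The calls leaned on single libraries: without ob/ob replicate 1, uc007hbd.1 had an edgeR adjusted p of 0.055, and without ob/ob replicate 2, uc007hkx.1 had 0.070. Scaled by library size alone, uc007hbd.1 had an edgeR adjusted p of 0.077.

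In nuclear IP the same 4 clusters were called lower in ob/ob than in wild-type livers, against 13.7% of all clusters called and 8.23% called lower. Cluster uc008hhr.1 was at its highest in this RNA kind, with 37.3 and 12.6 CPM in ob/ob livers, against 115 and 122 CPM in wild-type livers (-2.29 ± 0.38, edgeR adjusted p = 0.0026). Its ob/ob units differed from each other more than those of any other member. Cluster uc007hkx.1 had 14.6 and 8.04 CPM in ob/ob livers, against 63.0 and 40.0 CPM in wild-type livers (-2.23 ± 0.35, edgeR adjusted p = 0.0020). Cluster uc008hpc.2 had 24.6 and 14.8 CPM in ob/ob livers, against 65.3 and 43.8 CPM in wild-type livers (-1.51 ± 0.24, edgeR adjusted p = 0.0022). Cluster uc007hbd.1 had 24.8 and 27.5 CPM in ob/ob livers, against 51.3 and 38.8 CPM in wild-type livers (-0.81 ± 0.16, edgeR adjusted p = 0.0058), again the smallest change of the 5. For uc008glt.1 there were 3 counts in ob/ob and 44 in wild-type livers, 9.62-fold lower relative to the library totals (exact 95% binomial interval 3.08 to 48.4, counting error only).

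The median of all 5 members was -2.23 and that of all clusters -0.03. Both ob/ob units were below the other 4 for 11.9% of clusters. Without ob/ob replicate 2, only uc008hhr.1 stayed under the threshold. The edgeR adjusted p was then 0.069 for uc008hpc.2, 0.068 for uc007hkx.1 and 0.068 for uc007hbd.1. Without wild-type replicate 1, uc007hbd.1 had an edgeR adjusted p of 0.053. By library size alone uc007hbd.1 had 0.083, and in a fit on the 6 nuclear IP units alone 0.055.

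High-fat diet against wild type called none of the 5 in either IP. In cytoplasmic IP the high-fat diet units had 1.12 and 1.59 CPM of uc008glt.1, against 1.65 and 0.512 CPM in wild type, a log2 fold change of 0.24 ± 0.57. Cluster uc008hhr.1 had 63.4 and 56.0 CPM in high-fat diet livers, above both wild-type units, a change of 0.63 ± 0.36. Cluster uc007hkx.1 had 104 and 60.5 CPM in high-fat diet livers, also above both wild-type units, a change of 0.65 ± 0.32. Cluster uc008hpc.2 had 145 and 112 CPM in high-fat diet livers, below both wild-type units, a change of -0.37 ± 0.22. Cluster uc007hbd.1 had 53.8 and 58.3 CPM in high-fat diet livers, above both wild-type units, a change of 0.04 ± 0.15. The share of all clusters with these groups apart was not taken. With edgeR, 0 of 5 members passed in cytoplasmic IP, where 1.85% of all clusters did. None had an unadjusted p under 0.05 either, the lowest being 0.058 in the edgeR fit, and DESeq2 called 0.

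In nuclear IP, uc008glt.1 had 4.29 and 3.04 CPM in high-fat diet livers, against 2.97 and 1.31 CPM in wild type (0.77 ± 0.48), with no overlap. Here too the share of all clusters with these groups apart was not taken. Cluster uc008hhr.1 had 155 and 168 CPM in high-fat diet livers (0.43 ± 0.35), above both wild-type units, and uc008hpc.2 had 50.1 and 64.2 CPM (0.04 ± 0.23), within the wild-type range. Cluster uc007hkx.1 had 60.4 and 92.5 CPM in high-fat diet livers (0.54 ± 0.32), overlapping wild type. Cluster uc007hbd.1 had 54.9 and 63.6 CPM in high-fat diet livers (0.38 ± 0.16), above both wild-type units, and was the one member with an unadjusted p under 0.05, at 0.030 (edgeR adjusted p = 0.16). In nuclear IP, 5.37% of all clusters were called and 0 of 5 members, by edgeR and by DESeq2 alike. A missed threshold does not show that these levels were equal. Taking each total RNA library as its own replicate, which treats the pairs as independent, gave uc007hbd.1 an edgeR adjusted p of 0.030 in nuclear IP.

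Set directly against high-fat diet, which shares its ob/ob units with the comparisons above, ob/ob was called lower for the 4 members other than uc008glt.1 in both IPs. In cytoplasmic IP the edgeR log2 fold changes were -2.80 ± 0.40 for uc008hhr.1 (adjusted p = 0.0020), -2.59 ± 0.34 for uc007hkx.1 (0.0012), -1.10 ± 0.23 for uc008hpc.2 (0.017) and -0.92 ± 0.16 for uc007hbd.1 (0.0067). Cluster uc008glt.1, with 0 counts in ob/ob against 19 of 18401331 in high-fat diet, was at least 7.98-fold lower. In this comparison 3.57% of clusters were called and 1.97% were lower. In nuclear IP the edgeR values were -2.72 ± 0.39 for uc008hhr.1 (adjusted p = 0.0023), -2.77 ± 0.36 for uc007hkx.1 (0.0013), -1.55 ± 0.25 for uc008hpc.2 (0.0051) and -1.19 ± 0.16 for uc007hbd.1 (0.0017). Cluster uc008glt.1 had 3 counts in ob/ob against 36 in high-fat diet, 12.6-fold lower (exact 95% binomial interval 3.99 to 64.0). Here 3% of clusters were called and 1.83% were lower.

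The comparison of ob/ob with high-fat diet rested more on single libraries than that with wild type. Of these 4 members in cytoplasmic IP, 1 was called without ob/ob replicate 2 (uc008hhr.1) and 1 without high-fat diet replicate 1 (uc007hkx.1), 2 were called without high-fat diet replicate 2 and 3 without ob/ob replicate 1. In nuclear IP, 1 was called without high-fat diet replicate 2 (uc007hkx.1), 2 without ob/ob replicate 2, and 4 without ob/ob replicate 1 or without high-fat diet replicate 1. Scaled by library size alone, the edgeR adjusted p in cytoplasmic IP was 0.11 for uc008hpc.2 and 0.12 for uc007hbd.1, and in nuclear IP 0.067 for uc007hbd.1. In a fit on the 6 cytoplasmic IP units alone, uc007hbd.1 had an edgeR adjusted p of 0.057 in this comparison.

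**Figure D2:**
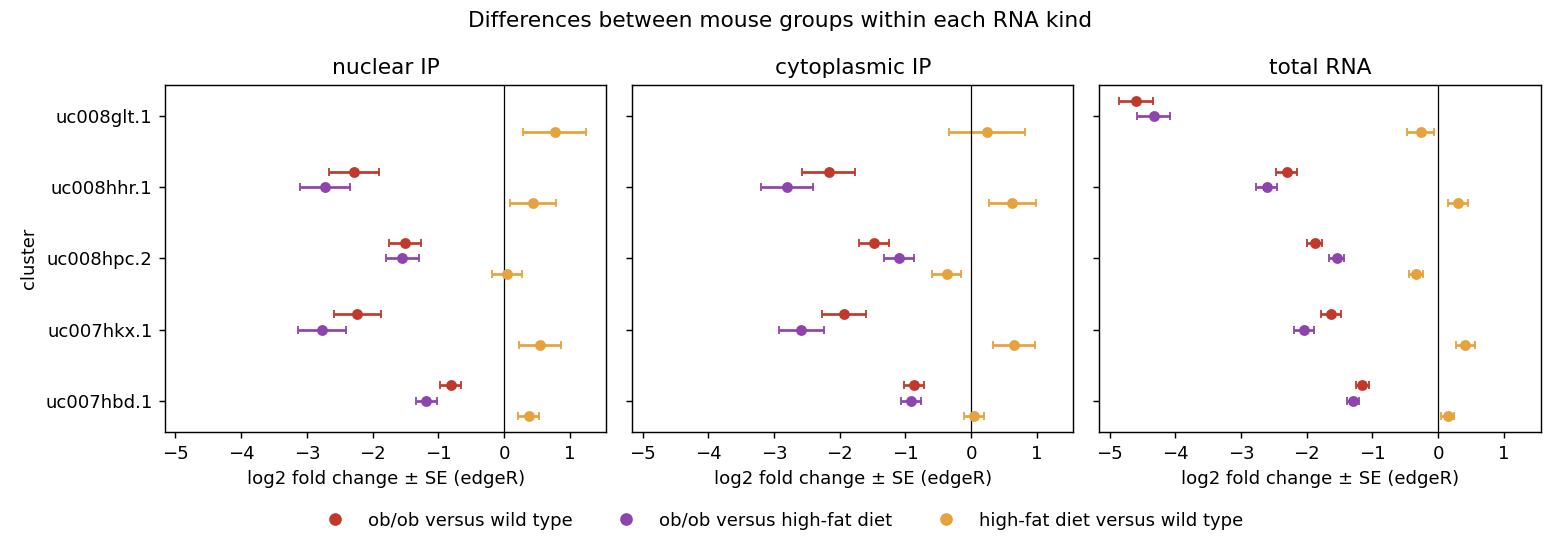
edgeR log2 fold change of each cluster with its SE in nuclear IP, cytoplasmic IP and total RNA, for ob/ob versus wild type, ob/ob versus high-fat diet and high-fat diet versus wild type (18 units for IP, 6 for total RNA). Every ob/ob point drawn lies left of 0 and the high-fat diet points lie between -0.37 and 0.77. Cluster uc008glt.1 in ob/ob IP, with 0 and 3 counts, is not drawn. The total RNA panel shows the differences the list was taken to rest on.

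Which RNA kind held most of a cluster differed between the members. Each such comparison is a mean over the 3 mouse groups, weighted equally. Those against total RNA use the levels behind the list, so they are described with no test, and nuclear IP was tested against cytoplasmic IP. Nuclear IP held more of uc008hhr.1 than cytoplasmic IP (log2 fold change 1.54 ± 0.22, SE, edgeR adjusted p = 1.8e-05). Against total RNA its log2 differences were 1.60 ± 0.21 in nuclear IP and 0.06 ± 0.21 in cytoplasmic IP. IgG held uc008hhr.1 in the same order, at 113 CPM in the nucleus and 43.4 CPM in the cytoplasm, the latter on 20 counts. The order is thus not particular to the hnRNPK antibody. Cluster uc008hpc.2 had the other order in IP. Its nuclear IP level was lower than its cytoplasmic IP level (-1.45 ± 0.14, edgeR adjusted p = 2.4e-07). IgG had 48.2 CPM of uc008hpc.2 in the nucleus and 39.05 CPM in the cytoplasm. The latter rests on 18 counts, too few to tell the order in IgG. Against total RNA uc008hpc.2 differed by -0.65 ± 0.13 in nuclear IP and 0.81 ± 0.13 in cytoplasmic IP, the last being 0.31 when scaled by library size alone.

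For uc007hbd.1 the difference between nuclear and cytoplasmic IP was -0.11 ± 0.09 (edgeR adjusted p = 0.30), and against total RNA it was -1.06 ± 0.09 in nuclear IP and -0.95 ± 0.09 in cytoplasmic IP. Nuclear IP was above cytoplasmic IP for uc008glt.1 by a fitted 2.81 ± 0.79, which includes the 0 counts of ob/ob and is therefore given with no p. Against total RNA it differed by -0.41 ± 0.35 in nuclear IP and -3.22 ± 0.58 in cytoplasmic IP. Cluster uc007hkx.1 had -0.14 ± 0.19 between the IPs (edgeR adjusted p = 0.56), 0.10 ± 0.19 for nuclear IP against total RNA and 0.24 ± 0.18 for cytoplasmic IP against total RNA. Of the 5 members, 3 were called between nuclear and cytoplasmic IP, where 64.6% of all clusters were called, so this count is near the background.

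The ratio of IP to total RNA was also taken within each mouse group, as a description, because it uses the total RNA levels behind the list. A low total RNA level in ob/ob, for which the members were listed, by itself raises the ob/ob ratio. In nuclear IP over total RNA, uc008hhr.1 had log2 ratios of 1.41 ± 1.10 in ob/ob, 1.69 ± 0.08 in high-fat diet and 1.49 ± 0.06 in wild-type livers (SD, n = 2 each), so the higher nuclear level was seen in every mouse group. For uc007hbd.1 the nuclear ratios were -0.87 ± 0.11 in ob/ob, -1.03 ± 0.15 in high-fat diet and -1.32 ± 0.28 in wild-type livers. In cytoplasmic IP it had -0.68 ± 0.20 in ob/ob, -1.10 ± 0.08 in high-fat diet and -1.09 ± 0.03 in wild-type livers. In both IPs the ob/ob units of uc007hbd.1 were the least depleted on average. Cluster uc008hpc.2 had cytoplasmic ratios of 1.14 ± 0.18 in ob/ob, 0.64 ± 0.27 in high-fat diet and 0.61 ± 0.01 in wild-type livers. Its nuclear ratios were -0.51 ± 0.52 in ob/ob, -0.53 ± 0.25 in high-fat diet and -0.98 ± 0.41 in wild-type livers. For uc007hkx.1 all ratios were within 0.46 of 0 on average and the mouse groups overlapped.

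**Figure D3:**
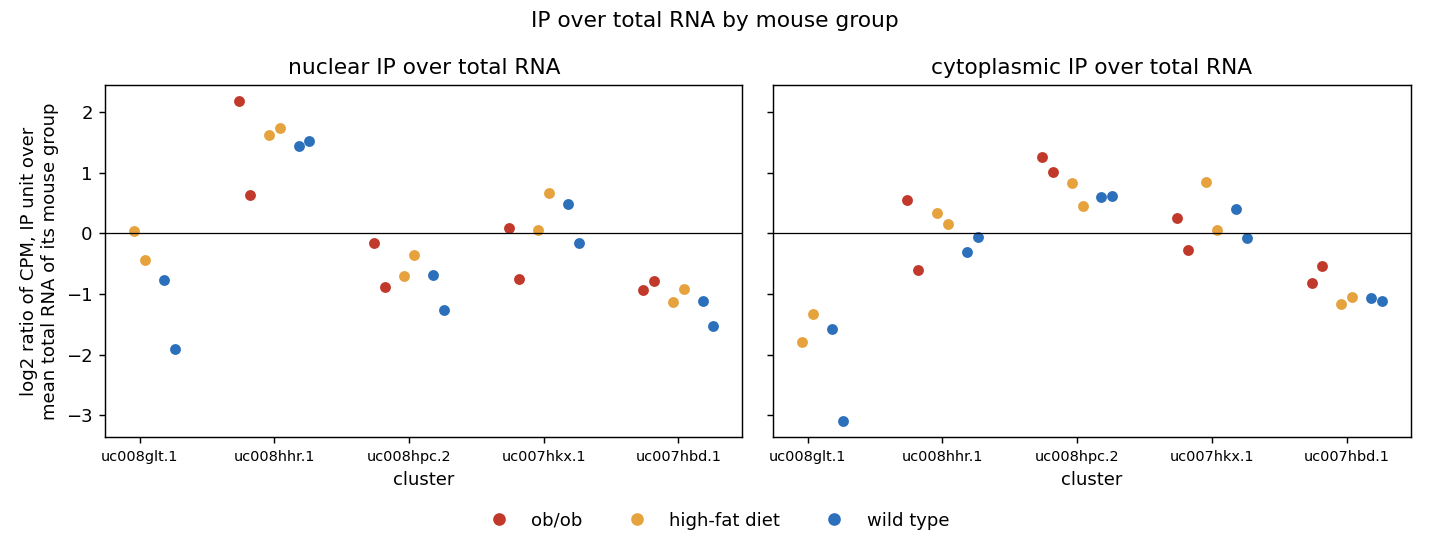
Log2 ratio of each IP unit to the mean total RNA of its mouse group, with 0.1 CPM added, for nuclear and cytoplasmic IP of ob/ob, high-fat diet and wild-type livers. Points are units; uc008hhr.1 lies above 0 in all 6 nuclear IP units and uc008hpc.2 in all 6 cytoplasmic ones, uc007hbd.1 lies below 0 throughout, and uc008glt.1 in ob/ob is not drawn for lack of counts.

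All 5 clusters were also present in the IgG control precipitations. In nuclear IgG, uc008hhr.1 had 113 CPM, and 4 of 6 nuclear IP units, those of high-fat diet and wild type, were above it. Cytoplasmic IgG had 43.4 CPM of it, and 2 of 6 units, both of high-fat diet, were above. Cluster uc008hpc.2 was the one member whose 6 cytoplasmic IP units all exceeded IgG, which had 39.0 CPM, while 3 of 6 nuclear units exceeded the 48.2 CPM of nuclear IgG. For uc007hkx.1 the IgG levels were 30.0 CPM in the nucleus and 28.2 CPM in the cytoplasm, and in each compartment the 4 high-fat diet and wild-type units lay above and both ob/ob units below. Cluster uc007hbd.1 exceeded IgG, at 62.0 CPM in the nucleus and 54.2 CPM in the cytoplasm, in 1 of 6 units of each compartment, both of high-fat diet. Cluster uc008glt.1 exceeded the 3.98 CPM of nuclear IgG in 1 of 6 units and the 2.17 CPM of cytoplasmic IgG, which rests on 1 count, in 0 of 6. The cytoplasmic IgG values rest on 1 to 25 counts and each compartment has a single IgG library from mixed mice, so no test was made. For uc007hbd.1 and uc008glt.1 most IP levels were thus not above the control precipitation, nor were most cytoplasmic levels of uc008hhr.1. Among ob/ob units, only the cytoplasmic ones of uc008hpc.2 exceeded IgG. All other ob/ob IP levels of the 5 members, including those called lower, were below the control.

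Within clusters, the transcripts that took the counts differed between IP and total RNA. RSEM divides reads among transcripts that share sequence, so these shares are estimates. In uc007hbd.1 the 3009 nt transcript that names it took a median of 26.05% of the cluster's estimated counts in nuclear IP (0% to 64.2% over 6 units) and 10.7% in cytoplasmic IP (0% to 54.7%), against 70.0% in total RNA (67.3% to 74.3%). The 2965 nt uc007hbb.1 took 73.8% in nuclear IP (34.4% to 99.3%) and 88.6% in cytoplasmic IP (45.3% to 100%), against 8.002% in total RNA (5.46% to 8.73%). Every IP unit gave uc007hbb.1 a larger share than every total RNA unit did. The 3086 nt uc007hbc.1 had no counts in any of the 12 IP units, against 13.8% to 19.5% in total RNA, and the 1346 nt uc007hba.1 had at most 1.43% in IP, against 4.31% to 7.85% in total RNA.

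The split was uneven among IP units. In nuclear IP, uc007hbb.1 took 52.0% and 68.4% in ob/ob livers, 80.7% and 34.4% in high-fat diet and 99.3% and 79.1% in wild-type livers. In cytoplasmic IP it took 100% and 78.5% in ob/ob livers, 69.6% and 45.3% in high-fat diet and 99.4% and 98.7% in wild-type livers. In cytoplasmic IP the ob/ob and wild-type units overlapped and the high-fat diet units were the lowest. In nuclear IP both ob/ob units lay below both wild-type units, and the high-fat diet units fell on either side of the ob/ob ones. These orders rest on an unstable split. The 3009 nt transcript had 66.8 and 67.0 estimated counts in ob/ob nuclear IP, 63 and 134 under high-fat diet, and 0 and 67.0 in wild type. Its cytoplasmic IP estimates were 0 and 66.7, 129 and 200, and 0 and 0, by the same groups. Several units thus had nearly equal estimates, and the cause was not tested. No mouse-group difference in transcript use is drawn from these shares. IgG gave uc007hbb.1 84.1% in the nucleus (95% Wilson interval 79.3 to 88.1, counting error only) and 100% of 25 counts in the cytoplasm, so its large share was present in the control precipitation too. In total RNA, uc007hbc.1 took 19.5% and 17.9% in ob/ob livers, 15.7% and 13.8% in high-fat diet and 13.8% and 14.1% in wild-type livers, with both ob/ob units above the other 4. Both ob/ob units lay below the other 4 for uc007hbb.1, at 7.44% and 5.46%, and for the 3009 nt transcript, at 67.3% and 68.8%. These total RNA shares come from the libraries the list was chosen on and were not tested.

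In uc008hhr.1 the shorter uc008hhq.1 took a larger share in cytoplasmic IP than elsewhere. It had 1.99% of the estimated counts in nuclear IP (0.958% to 3.09%) and 13.2% in cytoplasmic IP (9.84% to 19.8%), against 1.72% in total RNA (1.10% to 3.16%), as medians over 6 units. All 6 cytoplasmic units lay above all 12 others. The 2 cytoplasmic units of each mouse group had 9.84% and 19.8% in ob/ob livers, 11.8% and 13.4% in high-fat diet and 13.2% and 14.8% in wild-type livers, so the larger share was seen in all 3 groups. Nuclear IgG had 2.07%, and cytoplasmic IgG had 0 of 20 counts, whose 95% Wilson interval reaches 16.1% and so cannot be told from the IP share. Weighted per length as a share of TPM, uc008hhq.1 took 5.46% in nuclear IP and 30.5% in cytoplasmic IP, against 4.79% in total RNA.

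The remaining minor transcripts were seen in total RNA alone. In uc008hpc.2, uc012bmd.1 had 0 counts in the 12 IP units and both IgG libraries, against 2.86% to 11.7% in total RNA. Its total RNA estimate was unstable, with 0 counts in the first and 264 in the second library of wild-type replicate 2. In uc007hkx.1, uc007hkw.1 had 0 counts in IP, against 0% to 1.43% in total RNA. Neither transcript separated ob/ob from the other groups. For uc007hkw.1 both high-fat diet units, at 0.451% and 0.569%, lay above both wild-type units, at 0.377% and 0%. These shares rest on at most 27.3 estimated counts per unit.

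**Figure D4:**
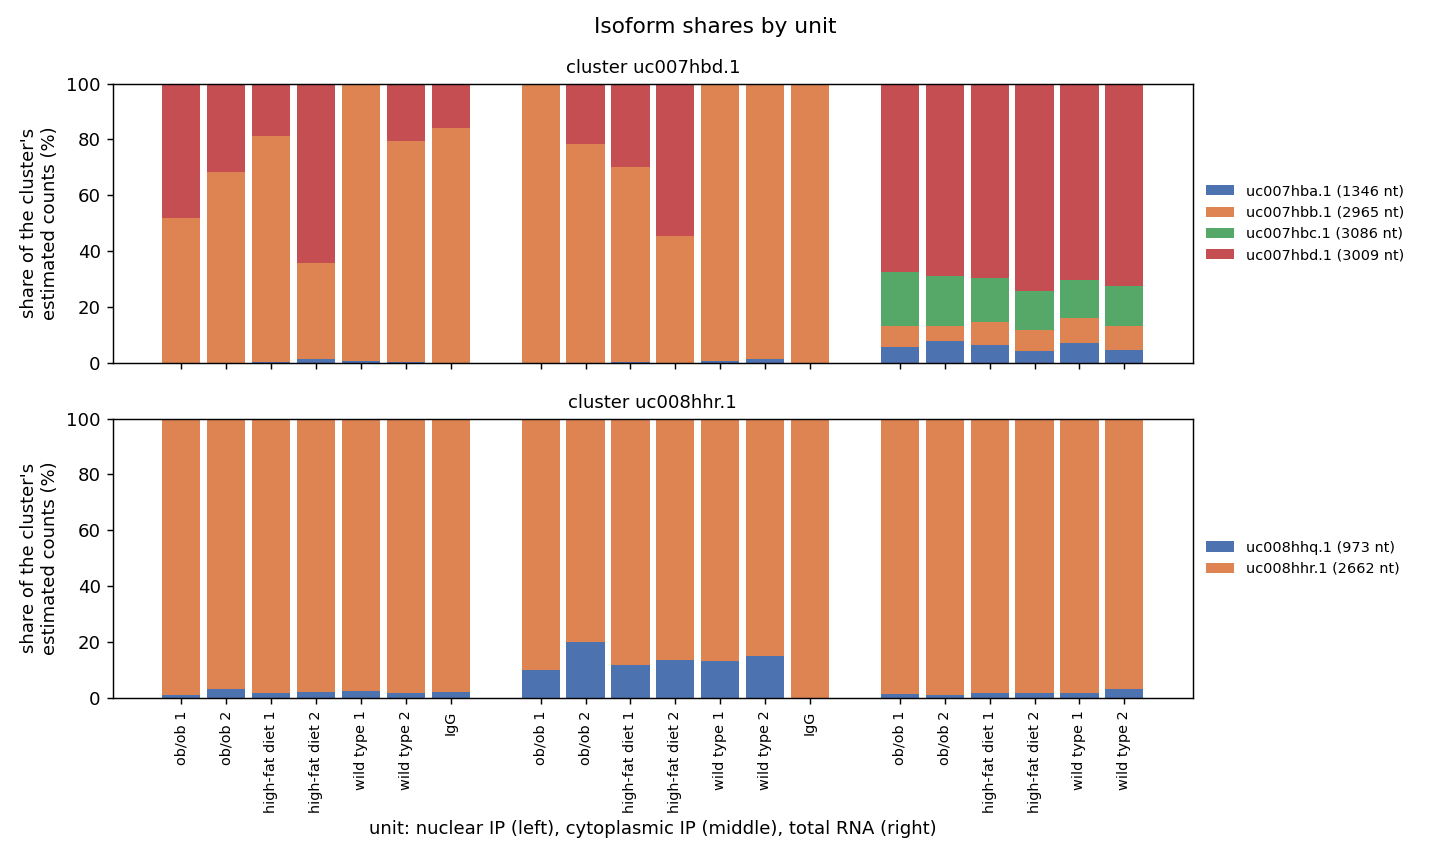
Share of each transcript in the estimated counts of clusters uc007hbd.1 and uc008hhr.1, in percent, for every unit of nuclear IP, cytoplasmic IP and total RNA and for IgG; stacked bars sum to 100%. The 2965 nt transcript fills most of the uc007hbd.1 bar in 10 of 12 IP units and at most 8.73% in total RNA, and the 973 nt transcript of uc008hhr.1 reaches 9.84% to 19.8% in cytoplasmic IP.

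To compare levels between the clusters, TPM was used, which divides by length. In total RNA the order was the same in wild-type and high-fat diet livers for the highest, uc008hpc.2, and the lowest, uc008glt.1. Cluster uc008hpc.2 had 30.6 ± 0.36 TPM in ob/ob, 90.4 ± 3.33 TPM in high-fat diet and 105 ± 17.6 TPM in wild-type livers (SD, n = 2 each), and in wild type it ranked 1093 of 31469 clusters. Cluster uc007hbd.1 had 36.8 ± 1.77 TPM in ob/ob, 90.1 ± 0.94 TPM in high-fat diet and 75.7 ± 10.9 TPM in wild-type livers, at rank 1421. These clusters do not differ beyond their spread in high-fat diet livers, and in ob/ob livers uc007hbd.1 was the higher one. Clusters uc007hkx.1 and uc008hhr.1 had 11.8 ± 2.30 and 6.65 ± 0.27 TPM in ob/ob, 49.0 ± 8.22 and 41.7 ± 9.58 TPM in high-fat diet, and 33.8 ± 0.27 and 31.4 ± 0.67 TPM in wild-type livers, at ranks 2698 and 2857. In high-fat diet livers their levels lay within the spread. Cluster uc008glt.1 had 0.22 ± 0.03 TPM in ob/ob, 4.44 ± 0.68 TPM in high-fat diet and 4.95 ± 0.78 TPM in wild-type livers, at rank 8293.

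For each member, the cluster with the most similar pattern was found by Pearson's r of log2 CPM over the 18 units, centred within each RNA kind, among 13511 clusters. The units share mouse groups and libraries, so r is a description with no p. Among the members themselves r was 0.895 to 0.970 over 10 pairs, with a median of 0.921, which the choice of members largely fixes. The pattern of uc008glt.1 was most like that of uc008tbo.3 (r = 0.978), which had 22.8 CPM in ob/ob, 3337 CPM in high-fat diet and 5469 CPM in wild-type total RNA, averaged over units. For uc008hpc.2 it was uc008orm.2 (r = 0.965), with 9.10 CPM in ob/ob, 50.8 CPM in high-fat diet and 79.5 CPM in wild type. For both, the closest cluster likewise had its high-fat diet mean below its wild-type mean. For uc007hkx.1 it was uc009apy.1 (r = 0.977), with 18.01 CPM in ob/ob, 66.5 CPM in high-fat diet and 50.4 CPM in wild type, and for uc007hbd.1 it was uc009nbl.2 (r = 0.967), with 173 CPM in ob/ob, 1348 CPM in high-fat diet and 957 CPM in wild type. These have the high-fat diet mean on top, as their members do. For uc008hhr.1 it was uc009edr.1 (r = 0.962), with 99.6 CPM in ob/ob, 152 CPM in high-fat diet and 160 CPM in wild type. Unlike it, uc008hhr.1 itself had its high-fat diet mean above its wild-type mean, at 50.7 and 42.2 CPM. Between 24 and 54 clusters exceeded r of 0.9 with a given member.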

How the data were processed

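Total RNA and hnRNPK or IgG precipitates of mouse liver were sequenced, with 26 libraries in all. Estimated counts (RSEM's expected count), TPM and isoform percent per transcript were deposited by the authors, who made them with RSEM 1.2.8, per the submitters' processing notes, which also name TopHat2 2.0.10, Bowtie2 2.1.0 and mm10 without their roles. Whether libraries kept the strand is not given in those notes. RSEM splits reads among similar transcripts, so overlapping or antisense clusters are uncertain. The deposited isoform percent was not used. Expected counts of 59121 transcripts were summed to 31469 clusters, summed over the library pairs of total RNA (taken as runs of the same RNA, which the labels do not state) and rounded. The IgG libraries are labelled as hnRNPK-bound in one field, but their titles say IgG and were followed.

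Tests used edgeR 4.0.16 (quasi-likelihood) in R 4.3.3 with TMM, filterByExpr and Benjamini-Hochberg adjustment at 0.05, on all 18 units with a mean per mouse group and RNA kind, or on 6 units for total RNA, where no test was made. The planned p-values of IP against total RNA are not given, because the choice of members was taken to rest on total RNA. Nor are those of uc008glt.1 between the IPs or in ob/ob comparisons. IgG entered no test. The SE is the absolute log2 fold change over the square root of F. CPM were TMM-scaled over units and IgG, and 0.1 CPM was added before logs. Bounds against 0 counts use 3 counts summed over both libraries; bounds and intervals cover counting error only. All 5 members passed the filter in both fits. The members, the lists and the tests were chosen with earlier results of these data known. The rule named every member, and for each the most similar cluster. Alternatives included DESeq2 1.42.0, other scalings, no filter, single libraries of a pair, the replicate number as a block and leaving out each replicate. Steps were tested on simulated data.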

Additional observations from a re-analysis of the deposited data

Results flagged for a closer look

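Cluster uc008hhr.1 was flagged because its cytoplasmic IP level relative to total RNA lay on opposite sides of 0 in the high-fat diet and wild-type groups. Both high-fat diet units were above 0, with log2 ratios of 0.34 and 0.16 (mean 0.25), and both wild-type units were below 0, with -0.30 and -0.05 (mean -0.18). The ob/ob units fell on both sides, at 0.56 and -0.61. The difference was not tested. No other member had both units of one mouse group above 0 and both of another below it. The sign rests on the scaling: by library size alone, the cytoplasmic level of uc008hhr.1 against total RNA over all groups was -0.44, against 0.06 with TMM.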

How the results depend on the processing

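Counts here include uc008glt.1. Its calls in ob/ob and between the IPs carry no weight, so counts of members called are upper limits. Of 339 alternative values of the members' ob/ob comparisons, 337 were negative, 294 of them on the same side of the threshold; 43 lost the call, 33 of these among the 120 that left out a replicate, where an arm of 1 unit is assumed to vary like the others. Leaving out replicates gave 3 to 5 members called for cytoplasmic and 1 to 5 for nuclear ob/ob against wild type, and 1 to 5 for ob/ob against high-fat diet in each IP. Cytoplasmic ob/ob against high-fat diet had 3 members called by library size alone and 3 in the 6-unit fit. With each total RNA library as its own replicate, 1 member was called for high-fat diet against wild type in nuclear IP. Units of one replicate number deviated together across RNA kinds in ob/ob and wild type (r 0.26 to 0.41) but not in high-fat diet (-0.12 to 0.09), nor across mouse groups (-0.28 to 0.10), so pairing was not taken as given. The replicate block (the number between mouse groups, and mouse group with number between RNA kinds) left every count of members called unchanged. DESeq2 gave no adjusted p for uc008glt.1 in 2 comparisons.

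Directions turned as follows, as log2 fold changes, and the cause was not tested. Under library size alone, uc007hbd.1 was -0.015 in cytoplasmic and -0.042 in nuclear IP when high-fat diet was set against wild type and 0.042 between the IPs, uc008hpc.2 was -0.39 for high-fat diet against wild type in nuclear IP, uc008hhr.1 was -0.44 and uc007hkx.1 was -0.25 for cytoplasmic IP against total RNA, and uc007hkx.1 was -0.28 for nuclear IP against total RNA. Counting the most counted transcript alone, uc007hbd.1 was 9.85 in cytoplasmic and 1.45 in nuclear IP for ob/ob against wild type and 3.88 between the IPs, and uc008hhr.1 was -0.12 for cytoplasmic IP against total RNA; that transcript of uc007hbd.1 had 0 counts in several IP units. Leaving out a replicate, high-fat diet against wild type ranged from -0.36 (without wild-type replicate 2) to 1.39 for uc008glt.1 in cytoplasmic IP, and from -0.22 (without wild-type replicate 2; -0.097 without high-fat diet replicate 2) to 0.40 for uc008hpc.2 in nuclear IP. Against total RNA, uc008hhr.1 ranged from -0.21 (without ob/ob replicate 1) to 0.24 in cytoplasmic IP, and uc007hkx.1 from -0.14 (without ob/ob replicate 1) to 0.35 in nuclear IP. Between the IPs, uc007hkx.1 reached 0.14 without high-fat diet replicate 1.

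Library size alone moved the median of all clusters to -0.62 (TMM -0.11) for cytoplasmic IP against total RNA, -0.54 (-0.18) for nuclear IP against total RNA, -0.45 (-0.06) for high-fat diet against wild type and 0.49 (0.02) for ob/ob against high-fat diet in nuclear IP. Clusters called higher and lower were then 435 and 179 in cytoplasmic ob/ob against wild type (TMM 803 and 923), 196 and 53 in cytoplasmic ob/ob against high-fat diet (216 and 266), 8 and 15 in cytoplasmic high-fat diet against wild type (130 and 120), and in nuclear IP 378 and 212 (743 and 1112), 1317 and 70 (159 and 247) and 65 and 1603 (302 and 424) for the same comparisons. Clusters called in cytoplasmic ob/ob against wild type numbered 1726, against 614 by library size alone, 665 in the 6-unit fit and 2920 with single libraries, and in nuclear IP 1855 against 590, 735 and 3031. By share of TPM the medians were 64.5% for uc007hbd.1 and 13.0% for uc007hba.1 in total RNA (70.0% and 5.99% by counts), and for uc008hhq.1 5.46% in nuclear IP, 30.5% in cytoplasmic IP and 4.79% in total RNA. Depth limits uc008glt.1 and the cytoplasmic IgG library most.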
